A study of Zea mays with 11 samples.

Results

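The gene models carried by the chloroplast and mitochondrial genomes of maize were described here in bisulfite sequencing of genomic DNA from the inbred line Mo17. They were chosen as every gene model whose sequence is named Cp or Mt in the deposited tables, which gave 57 chloroplast and 124 mitochondrial models, 181 of 39656 in all. The 11 libraries were 2 of whole seed (3 and 5 days after pollination), 8 of endosperm dissected from the seed (at 7, 9, 10 and 11 days and, later, at 13, 15, 20 and 25 days) and 1 of the ear leaf at 13 days, the control tissue. All plants were grown in the field in one season, untreated, and their ears were self-pollinated on one day. Each stage had 1 library and nothing says how many ears went into it, so the spread used below is that between libraries of different days.

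Plastids and mitochondria keep small genomes of their own, present in many copies per cell. The chloroplast genome encodes parts of the photosystems, of an NADH dehydrogenase-like complex, of the plastid ribosome and of a plastid RNA polymerase, while the plant mitochondrial genome encodes subunits of the respiratory complexes, ribosomal proteins and many open reading frames of unknown function. Bisulfite turns unmethylated cytosine into a base that is read as T, so a methylated call is a cytosine that was still read as C. Plant organelle DNA is generally regarded as poor in cytosine methylation, and chloroplast reads are often used to judge how completely bisulfite converted a library. A low level in organelle models can therefore hold both methylated and unconverted cytosines, which these tables do not tell apart. Calls come in the CG, CHG and CHH contexts, where H is A, C or T. The level is the percentage of calls in a region that were methylated.

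The tables gave a methylated count and a level for the body of each model and for a region upstream of it. No source used here states the width of that region. Of 4161 neighbouring bodies that lay wholly within 5 kb upstream of a model, 1 (0.024%) held more methylated calls than that upstream region, against 10.9% of 1390 whose far end lay at 5 to 6 kb, so 5 kb was used as the width. Upstream regions of neighbouring organelle models overlap and share calls. They are not independent members. A pooled upstream level or depth counts a shared call once for each region that holds it. Positions are those of the deposited tables, for which no source used here names a genome build. No identifier matched the RefSeq table of assembly Zm-B73-REFERENCE-NAM-5.0, but 121 of the 181 models had both ends identical to those of a RefSeq gene of the same organelle. For 113 of them that gene has a symbol, 20 in the chloroplast and 93 in the mitochondrion, of which 79 are numbered open reading frames (orf). These symbols are used below and rest on that match of position alone.

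Much of both genomes had no calls. In the chloroplast, 31 of 57 bodies had a call in at least 1 library, 26 had none, and 12 held the 10 calls in every library that the tests required. Upstream, 38 of 57 regions had a call and 26 could be tested. Those 26 regions form 5 separate stretches of the genome. In the mitochondrion, 45 of 124 bodies had a call and 79 had none. Its testable bodies numbered 36 for CG and 39 for CHG and CHH. Upstream, 76 mitochondrial regions had a call and 68 could be tested for CG and CHG, 69 for CHH, in 30 separate stretches. Among chloroplast models with a symbol, rpoC1 (a subunit of the plastid RNA polymerase), rpl14 (a ribosomal protein), infA (a translation initiation factor) and psaC (an iron-sulfur subunit of photosystem I) had body calls in all 11 libraries, counted over the 3 contexts. No body CG call could be counted in any library for psbJ and psbF of photosystem II, for rps2, rpl2 and rpl33 of the ribosome, or for ndhA, ndhE, ndhG, ndhI and the 2 models of ndhB. Mitochondrial models without a countable body CG call included cob (cytochrome b), atp4 (an ATP synthase subunit), ccmB and ccmC (cytochrome c maturation), rps2A, rps7 and rps13. Why these models had no calls was not tested.

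Calls were concentrated in few models. The chloroplast model GRMZM5G856777 (Cp 6392 to 12986, plus strand, no symbol) held 55.3% to 61.2% of the chloroplast body CG calls of a library and 52.8% to 69% of the methylated ones. In the mitochondrion, nad4 (Mt 76132 to 84976), a subunit of respiratory complex I, held 55.7% to 63.8% of the body CG calls and 42% to 51.6% of the methylated ones. By calls, a pooled body CG level therefore rests mostly on 1 model in each organelle. Such shares were not worked out for upstream regions. A further property of the tables bears on such models: all methylated counts of GRMZM5G856777 are even, and the same holds for 2 of 16 chloroplast, 5 of 42 mitochondrial and 24.2% of 36596 nuclear bodies with at least 10 counts above 0. No source used here gives a cause. The level of a single model is unaffected by such a factor, but its totals may be too high, which gives it more weight in a pooled level. With even counts divided by 2, the pooled chloroplast body CHG difference of seed and endosperm was 4.54 percentage points in place of 5.08. The intervals of pooled levels were computed with both counts divided by 2.

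Relative to nuclear calls, chloroplast models received the most calls in the leaf and the fewest in seed, while mitochondrial models received the fewest in the leaf and similar numbers in seed and endosperm. Chloroplast bodies received 0.936 calls per 1000 nuclear calls in 3-day seed and 1.36 in 5-day seed. In endosperm they received from 2.97 to 5.11, with a median of 3.19, and in the leaf 8.68. The groups did not overlap: both seed libraries lay below every endosperm library and the leaf lay above all of them. Mitochondrial bodies received 7.35 and 7.87 calls per 1000 nuclear calls in seed, from 5.21 to 9.51 (median 7.00) in endosperm and 2.94 in the leaf. Here both seed libraries lay within the endosperm range and the leaf below it. Within endosperm, the libraries of days 7 to 11 held 8.22 to 9.51 and those of days 13 to 25 held 5.21 to 5.78. Chloroplast upstream regions showed the same order as the bodies, with means of 1.29 ± 0.422 (SD, n = 2) in seed, 4.08 ± 1.01 (SD, n = 8) in endosperm and 9.17 in the leaf. For mitochondrial upstream regions the seed mean was 21.95 ± 1.58 (SD, n = 2), the endosperm mean, 22.66 ± 5.54 (SD, n = 8), differed from it by less than the spread, and the leaf had 9.40. Fewer cells rich in an organelle and fewer genome copies per cell cannot be told apart in bulk tissue. In units of 1000000 calls, the libraries held 144.8 to 224.0 in all, of which organelle models took 1.30% to 2.21%.

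**Figure D1:**
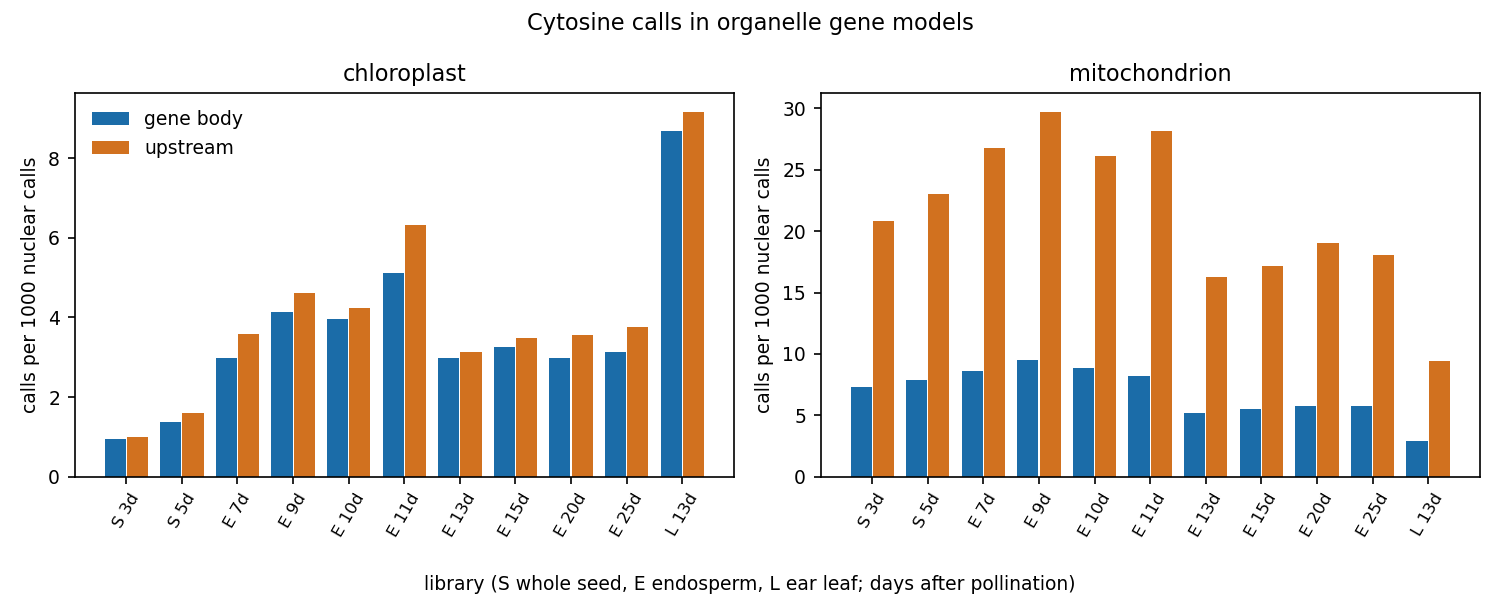
Bars give the cytosine calls of all 3 contexts in chloroplast (left) and mitochondrial (right) gene models per 1000 nuclear calls, for bodies and upstream regions in each of the 11 libraries. Chloroplast body values rise from 0.936 in 3-day seed to 8.68 in leaf, while the mitochondrial leaf value of 2.94 is the lowest of its panel's body values.

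Pooled over all covered models, chloroplast CG and CHG levels were about 3 times as high in whole seed as in endosperm. The body CG level was 6.55% in 3-day seed and 5.73% in 5-day seed. It ran from 1.97% to 2.84% (median 2.21%) over the 8 endosperm libraries and was 2.25% in the leaf. Both seed libraries lay above every other library, and the leaf lay inside the endosperm range. As means, seed had 6.14% ± 0.574 (SD, n = 2) and endosperm 2.28% ± 0.283 (SD, n = 8), a ratio of 2.69. The body CHG level was 8.54% and 6.34% in seed, 2.09% to 2.72% (median 2.34%) in endosperm and 2.41% in the leaf. Upstream CG levels were 8.33% and 6.51% in seed, 1.79% to 2.71% (median 1.95%) in endosperm and 2.02% in the leaf, and upstream CHG levels were 7.56% and 6.98%, 2.10% to 2.68% (median 2.49%) and 2.32%. In all 4 of these measures the seed libraries stood clear of the rest, with ratios of the means of 2.69 to 3.56. CHH differed less. Its body level was 0.953% and 0.827% in seed, 0.697% to 1.02% (median 0.762%) in endosperm and 0.669% in the leaf, so the seed libraries lay within the endosperm range. The upstream CHH level was 1.19% and 0.885% in seed, 0.651% to 0.926% (median 0.766%) in endosperm and 0.607% in the leaf, a ratio of the seed and endosperm means of 1.35. There the 3-day seed lay above every endosperm library and the 5-day seed inside their range. The differences in pooled level are descriptions and carry no test.

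Counted against the nucleus, methylated calls were not more frequent in seed. Chloroplast bodies held 46.1 and 60.9 methylated CG calls per 1000000 nuclear CG calls in seed, 46.4 to 78.5 in endosperm and 158 in the leaf. One seed value lay just below the endosperm range and the other inside it, while the total chloroplast calls behind them were far fewer. Whole seed had the highest chloroplast CG and CHG levels and the lowest chloroplast depth. The leaf had the highest depth, 8.68 against an endosperm mean of 3.56, with a level inside the endosperm range. The part of depth in the level was not tested. Tissue and age cannot be told apart either, since both seed stages are younger than every endosperm stage.

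**Figure D2:**
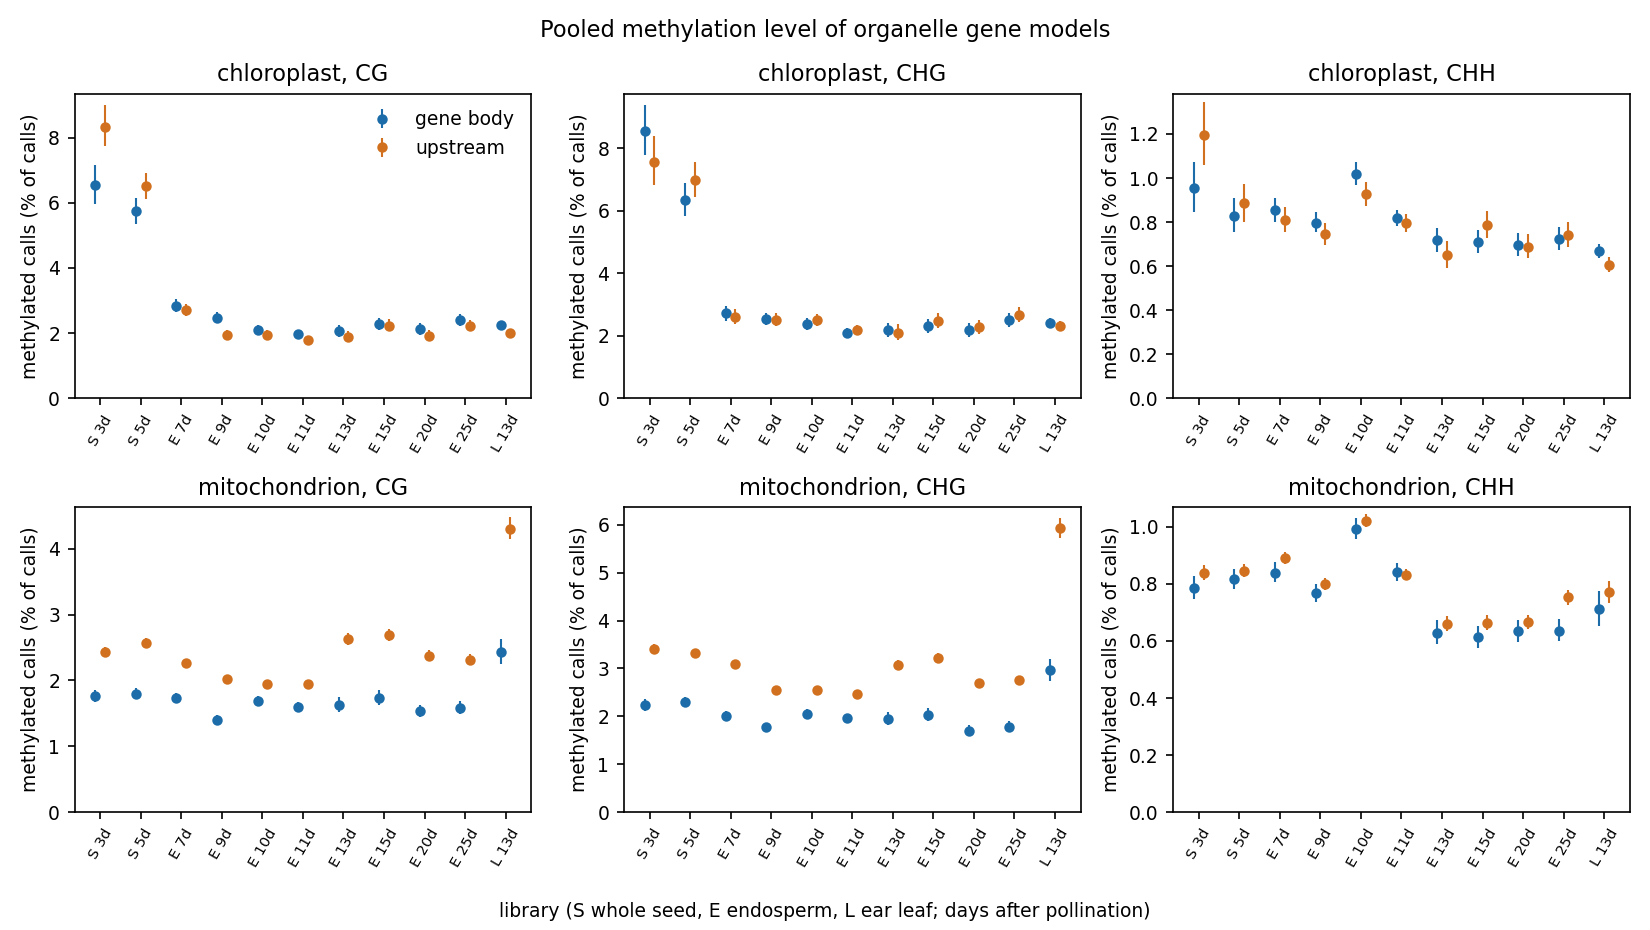
Points give the pooled methylation level in percent of calls per library, for bodies and upstream regions, with 95% Wilson intervals, for the chloroplast (top) and the mitochondrion (bottom) in CG, CHG and CHH. Upstream intervals can be too narrow, because calls shared by overlapping regions are counted more than once. Chloroplast CG body levels are 6.55% and 5.73% in seed and at most 2.84% elsewhere, and mitochondrial CHG upstream reaches 5.93% in the leaf.

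Mitochondrial CG and CHG levels differed little between seed and endosperm and were highest in the leaf. The body CG level was 1.76% and 1.79% in seed, 1.40% to 1.74% (median 1.61%) in endosperm and 2.44% in the leaf. Both seed values passed the highest endosperm library by little, and the leaf stood apart. Body CHG levels were 2.23% and 2.29%, 1.70% to 2.05% (median 1.95%) and 2.96%. Upstream CG levels were 2.43% and 2.57% in seed, 1.95% to 2.68% (median 2.29%) in endosperm and 4.31% in the leaf, which is 1.90 times the endosperm mean. Upstream CHG levels were 3.41% and 3.32%, 2.46% to 3.22% (median 2.72%) and 5.93%, a leaf to endosperm ratio of 2.12. The leaf, with the highest mitochondrial CG and CHG levels, also had the lowest mitochondrial depth, 2.94 calls per 1000 nuclear calls against an endosperm mean of 7.18. The part of this depth in the level was not tested. Per 1000000 nuclear calls of the same context and region, methylated mitochondrial calls were not more frequent in the leaf. Bodies held 72.3 for CG in the leaf, against 83.8 to 149 in endosperm, and 71.4 for CHG, against 80.0 to 148. Upstream regions held 385 for CG, against 389 to 556, and 525 for CHG, inside the endosperm range of 452 to 757.

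In both organelles the endosperm library of day 10 had the highest endosperm CHH level. It stood at 1.02% in chloroplast and 0.994% in mitochondrial bodies, against 0.697% to 0.854% and 0.613% to 0.842% in the other endosperm libraries. Mitochondrial body CHH levels of days 7 to 11 ran from 0.768% to 0.994% and those of days 13 to 25 from 0.613% to 0.637%, without overlap, and the mitochondrial depth of the same libraries split in the same way.

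Single models were tested in one fit over all nuclear and organelle models with enough calls, with p-values adjusted over all of them. A size below is the log2 ratio of the odds of a methylated call, with its standard error. Of the 26 testable chloroplast upstream regions, 13 had a higher CG level in whole seed than in endosperm at an adjusted p under 0.05 and 0 a lower one, while over all 36204 models tested 1.36% were called higher and 0.0359% lower. For CHG, 11 of 26 were called higher and 0 lower, beside 22.2% higher and 0.0525% lower of 36169, and all 11 were also called for CG. The 13 regions lie in 4 of the 5 stretches. The median log2 odds ratio of the 26 was 1.69 for CG beside 0.131 over all models, and 1.27 for CHG beside 0.632. With the 1 region at 0 methylated CHG calls in seed set to its bound of 3 counts over the group, the CHG median was 1.39. Both seed levels lay above all 8 endosperm levels in 16 of 26 regions for CG (7.35% of all models) and in 16 of 26 for CHG (31.9% of all models).

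These calls rest on both seed libraries. Without the 3-day library 1 region was called for CG and 6 for CHG, and without the 5-day library 0 and 4. With day as a covariate 5 and 6 were called, with limma on levels in percent 0 and 1, and against the 7- and 9-day endosperm alone 1 and 7.

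Among all 26 tested chloroplast regions, the estimate was above 0 in 22 for CG and in 21 for CHG. The 4 stretches are described below by their called regions only, so the shared direction of these regions follows from that choice. The regions differed in level. Regions that were not called, such as those upstream of rpoC1 and rpl14, overlap called ones in these stretches. The first holds the upstream regions of GRMZM5G836994, GRMZM5G811749 and GRMZM5G856777. Upstream of GRMZM5G811749 (Cp 3363 to 5604, minus strand), the CG level was 9.81% of 2304 calls in 3-day seed and 8.18% of 4438 in 5-day seed, 2.06% to 3.33% (median 2.44%) in endosperm and 2.64% in the leaf. Seed and endosperm did not overlap, and the log2 odds ratio was 1.89 ± 0.188 (SE; limma-moderated quasi F test, adjusted p = 0.00171). Its CHG level followed closely, with 9.77% and 7.94% in seed, 2.26% to 3.10% in endosperm and an adjusted p of 0.000475. The highest seed level of the chloroplast regions called lay upstream of GRMZM5G856777, with CG at 20.28% of 636 calls in 3-day and 10.61% of 1480 in 5-day seed, against 1.25% to 3.50% (median 2.18%) in endosperm and 2.02% in the leaf. There the seed libraries differed from each other by more than the 5-day library did from the highest endosperm library, and the log2 odds ratio was 2.85 ± 0.364 (SE, adjusted p = 0.00503).

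The second stretch lies upstream of rpoB, which encodes the beta subunit of the plastid RNA polymerase, and of its neighbour GRMZM5G813608. The CG level upstream of rpoB (Cp 21468 to 24695, plus strand) was 10.22% of 401 calls and 11.56% of 493 in seed, 0.830% to 4.25% (median 3.01%) in endosperm and 3.25% in the leaf. The seed libraries lay above all endosperm libraries, which themselves spread widely, and the log2 odds ratio was 2.19 ± 0.442 (SE, adjusted p = 0.0432). Upstream of GRMZM5G813608 (Cp 12720 to 15097, minus strand), CG was 9.80% and 12.89% in seed, 1.17% to 4.11% in endosperm and 3.09% in the leaf, with an adjusted p of 0.0323. The other polymerase genes, rpoC1 and rpoC2, had 23 to 116 upstream CG calls in a seed library. Their upstream CG levels were 8.70% and 3.80% (rpoC1) and 12.07% and 7.84% (rpoC2) in seed, with endosperm libraries from 0% to 6.86% and 0% to 8.37%, so that the 5-day seed lay inside the endosperm range in both, and neither was called (adjusted p = 0.868 and 0.662).

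The third stretch holds the upstream regions of GRMZM5G804708, GRMZM5G831399, GRMZM5G800780 and GRMZM5G884960. Upstream of GRMZM5G804708 (Cp 66312 to 70204, minus strand), CG stood at 5.49% of 1603 calls and 6.63% of 2836 in seed, 0.95% to 1.65% (median 1.38%) in endosperm and 1.26% in the leaf. Seed and endosperm did not overlap, and the adjusted p was the smallest of the chloroplast upstream regions for CG, 0.00144, at a log2 odds ratio of 2.35 ± 0.221 (SE). CHG was higher than CG in every library of this region, with 6.43% and 8.53% in seed and 2.00% to 2.67% in endosperm. All counts of this region were even, and they were close to 2 times those of GRMZM5G800780, whose region overlaps it: 88 against 45 methylated CG calls in 3-day seed.

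The fourth stretch runs upstream of GRMZM5G879235, GRMZM5G858556, GRMZM5G899836 and infA. Upstream of infA (Cp 78085 to 78408, minus strand), the CG level was 11.39% of 746 calls in 3-day seed and 7.04% of 1520 in 5-day seed, 2.09% to 4.03% (median 2.64%) in endosperm and 2.83% in the leaf. The log2 odds ratio was 1.69 ± 0.291 (SE, adjusted p = 0.0218). CHG there was 5.21% and 5.03% in seed and 1.58% to 2.91% in endosperm, again without overlap, at an adjusted p of 0.0547. The ribosomal protein gene rpl14 had upstream CG levels of 6.92% and 3.62% in seed, above an endosperm range of 0.990% to 2.28%, and was not called (adjusted p = 0.176).

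The regions that were not called had few calls, low levels in every library or overlapping groups. The region shared by psbJ and psbF, whose values were identical, had CG levels of 0% of 80 calls and 0.599% of 167 in seed and 0% to 2.28% in endosperm. The regions upstream of rpl33, rps18 and GRMZM5G808939 were as low. The region upstream of GRMZM5G801958 had CG at 1.98% and 1.47% in seed and 0.0900% to 1.07% in endosperm, on 303 and 544 seed calls, at an adjusted p of 0.641. The fifth stretch, upstream of GRMZM5G894515 (Cp 105072 to 107369), had CG at 5.04% and 3.44% in seed and 2.01% to 3.62% in endosperm. The 5-day seed lay inside the endosperm range there, and the log2 odds ratio was 0.61 ± 0.353 (SE, adjusted p = 0.68).

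**Figure D3:**
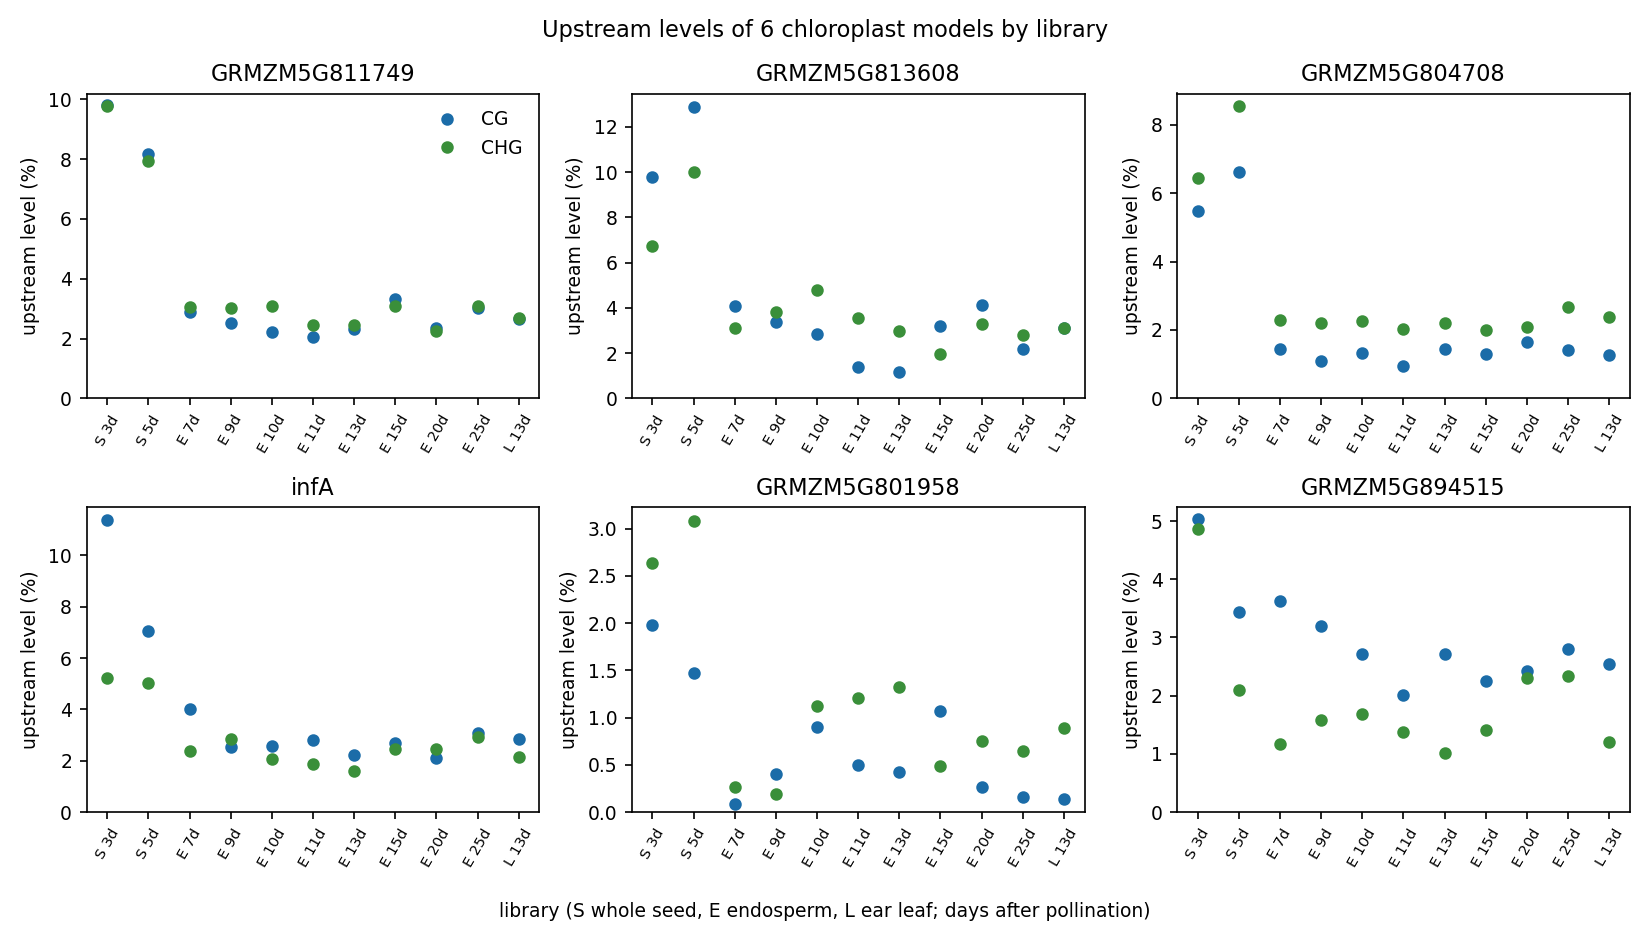
Each panel gives the CG and CHG level in percent upstream of 1 chloroplast model in the 11 libraries, with 1 called model from each of the 4 stretches and, last, GRMZM5G801958 and GRMZM5G894515, which were not called. The 6 were chosen after their values were seen. Upstream of GRMZM5G804708, CG reaches 6.63% in seed and stays at or below 1.65% in endosperm.

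Chloroplast bodies repeated the pattern in fewer models. For CG, 3 of 12 were called higher in seed and 0 lower, beside 1.18% higher and 0.0286% lower of 31518 models, and for CHG 2 of 12 higher and 0 lower, beside 6.65% and 0.117% of 31716. Both seed levels lay above all endosperm levels in 8 of 12 bodies for CG (7.48% of all models) and 4 of 12 for CHG (15.7%). The CG body level of GRMZM5G856777 was 7.33% and 6.86% in seed, 2.08% to 2.71% (median 2.41%) in endosperm and 2.48% in the leaf. Its log2 odds ratio was 1.66 ± 0.12 (SE, adjusted p = 0.00076) for CG and 1.86 ± 0.117 (SE, adjusted p = 0.000442) for CHG, the smallest errors of the chloroplast bodies. GRMZM5G808939 (Cp 70706 to 72490) had CG at 3.73% and 6.12% in seed and 0.860% to 1.85% in endosperm (adjusted p = 0.025), and was also called for CHG. Without the 3-day library 1 of the 12 bodies was called for CG and 1 for CHG, and without the 5-day library 0 and 1. The called bodies are not separate from the upstream calls: 10 of the 13 upstream CG regions overlap one of them.

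Over all 12 tested bodies the estimate was above 0 in 11 for CG and in 11 for CHG, most of them without a call. The largest model, GRMZM5G806488 (Cp 92870 to 131084), had CG at 5.04% and 3.44% in seed and 2.01% to 3.61% in endosperm (adjusted p = 0.527). For CHH, 1 body of 12 was called higher and 0 lower, beside 6.19% and 0.0124% of 32256. It was GRMZM5G831399, whose CHH level was 0% of 108 calls in 3-day seed and 5.00% of 340 in 5-day seed, with 0% to 0.969% in endosperm and 0.190% in the leaf (adjusted p = 0.0369). The call of this body was lost without the 5-day seed, and also without the 7-, 9- or 11-day endosperm library. No chloroplast upstream region was called for CHH in the limma-moderated test, beside 7.03% higher and 0.0532% lower of 37581 models. At an unadjusted p under 0.05 there were 2 of 26, beside 7566 of all models. Limma on log2 odds gave 0.

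**Figure D4:**
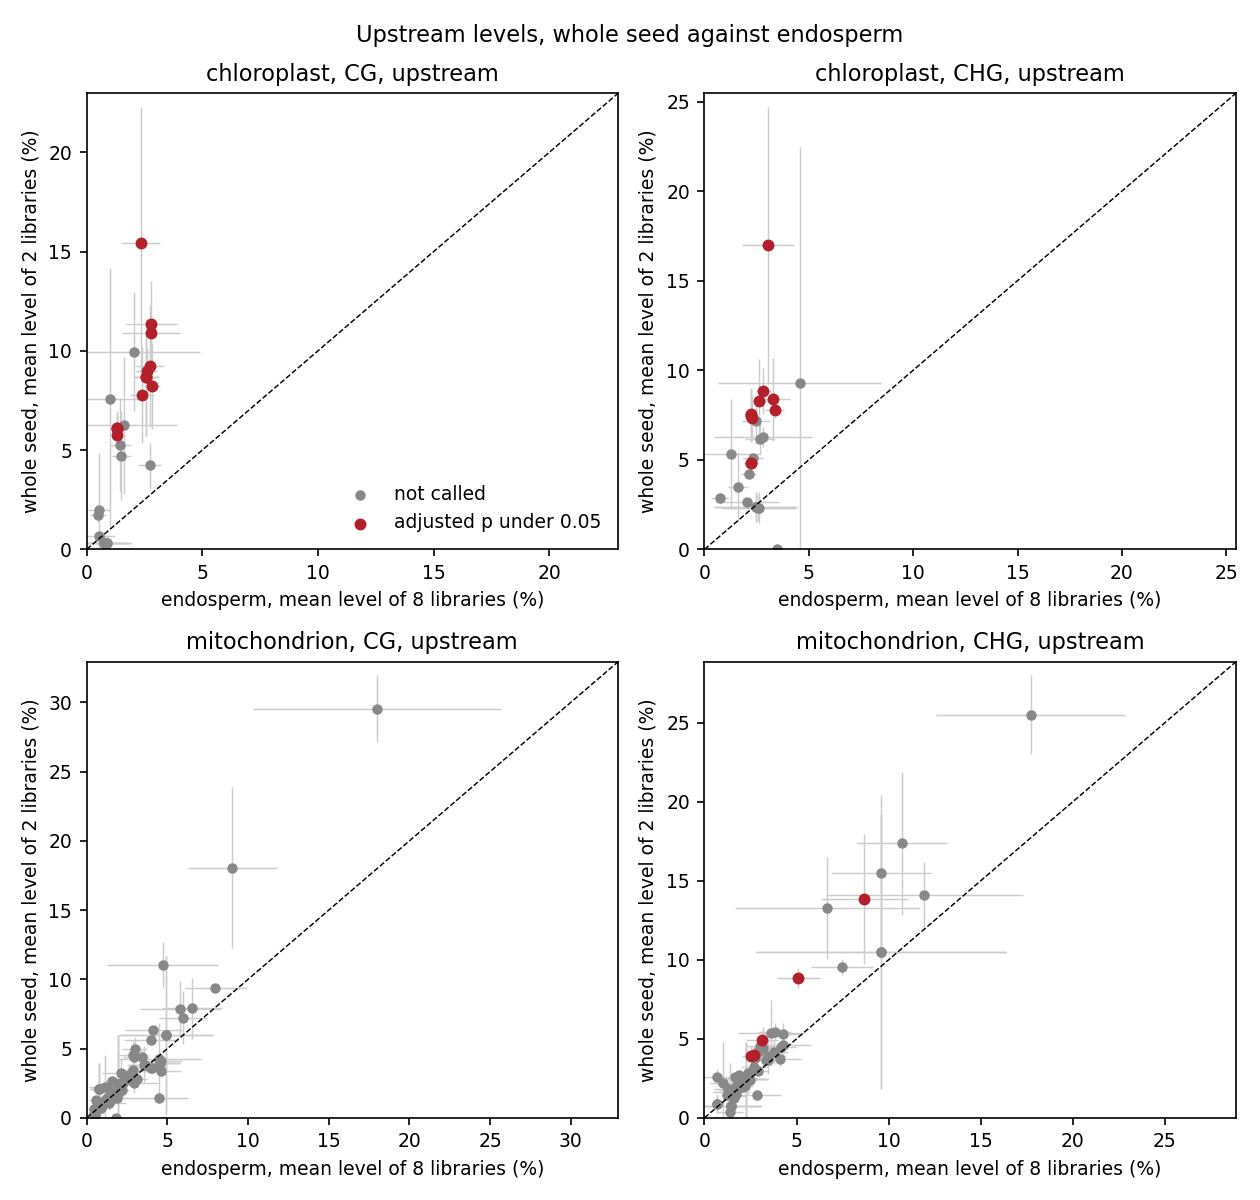
Each point is 1 upstream region, with its mean level in percent over the 8 endosperm libraries against that over the 2 seed libraries, bars of 1 SD, a dashed line of equality and called regions in red. In the chloroplast panels 13 (CG) and 11 (CHG) of 26 regions are red and lie well above the line. In the mitochondrial panels most regions lie near it.

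Mitochondrial models showed little of this. No body of 36 and no upstream region of 68 was called for CG in seed against endosperm in the limma-moderated test. At an unadjusted p under 0.05 there were 7 and 7, beside 3615 of 31518 and 3663 of 36204 over all models. Limma on log2 odds gave 0 and 0, and limma on levels in percent 1 and 0. The median CG log2 odds ratio was 0.238 in bodies and 0.0922 upstream, near the 0.106 and 0.131 of all models. For CHG, 1 of 39 bodies and 5 of 68 upstream regions were called higher, below the 6.65% and 22.2% of all models. The body was GRMZM5G889036 (Mt 261340 to 261951), with 6.12% and 5.82% in seed, 2.95% to 4.68% (median 3.83%) in endosperm and 8.84% in the leaf, at a log2 odds ratio of 0.64 (adjusted p = 0.0303). The 5 regions lay upstream of GRMZM5G860062, nad4, GRMZM5G863003, GRMZM5G887911 and orf149-a, each in a stretch of its own, and their log2 odds ratios ran from 0.58 to 0.88. Upstream of GRMZM5G863003, for example, CHG was 9.32% and 8.39% in seed and 3.22% to 6.63% (median 5.05%) in endosperm, without overlap. None of these 6 calls was made when either seed library was left out or with limma on log2 odds. No mitochondrial model was called for CHH in the limma-moderated test. At an unadjusted p under 0.05 there were 1 of 39 bodies and 2 of 69 upstream regions. Over all models there were 5771 of 32256 bodies and 7566 of 37581 upstream regions. Limma on levels in percent gave 1 body, and limma on log2 odds 0.

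The leaf was a single library, so a call sets that library against endosperm with a spread taken from the other groups, and leaf tissue and this library cannot be told apart. No chloroplast body or upstream region was called against endosperm in any context in the limma-moderated test or with limma on log2 odds. Of all models, 0.228% of bodies for CG, 0.952% for CHG and 0.676% for CHH were called higher, and 0.0525%, 6.76% and 0.817% of upstream regions. At an unadjusted p under 0.05 there were 0 chloroplast bodies and regions for CG and CHG and, for CHH, 1 body and 4 upstream regions. Over all models the CHH counts were 2694 of 32256 bodies and 3656 of 37581 upstream regions. In the mitochondrion 11 of 68 upstream regions were called with a higher CHG level in the leaf library and 0 with a lower one, beside 6.76% higher and 0.0249% lower of 36169 models. They lie in 8 stretches. The median CHG log2 odds ratio of the 68 was 0.585 beside 0.751 over all models, or 0.679 with the 8 regions at 0 in leaf set to their bound. The leaf level lay above all endosperm libraries in 37 of 68 regions, beside 50.7% of all models. For CG the same test called 0 of 68, and limma on log2 odds called 1. At an unadjusted p under 0.05 there were 15, beside 3444 of 36204 over all models. The leaf CG level lay above all endosperm libraries in 30 of 68 regions, beside 28.1% of all models. In bodies 0 of 36 were called for CG and 0 of 39 for CHG, and 0 with limma on log2 odds. At an unadjusted p under 0.05 there were 4 and 5 bodies, beside 3219 of 31518 and 4532 of 31716 over all models. No mitochondrial model was called for CHH in leaf (0 at an unadjusted p under 0.05, and 0 with limma on log2 odds).

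The regions called in leaf were named for being few, after their values were seen. Their levels covered a wide range. Upstream of nad6, a complex I subunit (Mt 565003 to 565665, plus strand), CHG was 18.97% and 12.02% in seed, 5.10% to 13.34% (median 9.69%) in endosperm and 27.69% of 1430 calls in leaf (95% Wilson interval 25.44% to 30.07%). The neighbouring orf149-a, whose region overlaps it, had 24.84% in leaf and 5.15% to 12.17% in endosperm. Upstream of orf275 (Mt 254397 to 255221, minus strand), the leaf stood at 21.2% of 8014 calls (20.32% to 22.11%), against 4.85% to 9.69% (median 7.80%) in endosperm and 9.88% and 9.17% in seed, at a log2 odds ratio of 1.82 ± 0.284 (SE, adjusted p = 0.0126). This region had the most leaf calls of the 5 highest ones. Upstream of GRMZM5G863003 the leaf stood at 15.92% of 1087 calls, against 3.22% to 6.63% in endosperm. Upstream of orf119-a, 24 of 34 leaf calls were methylated, or 70.59% (53.83% to 83.17%), against 0.990% to 14.88% in endosperm. So few calls leave that level uncertain over a wide range. The other 6 were those of GRMZM5G892983, GRMZM5G860062, GRMZM5G859187, GRMZM5G844030 and the identical regions of orf105-e and orf117-c. Their leaf levels ran from 5.77% to 10.78%, above endosperm ranges that did not pass 3.39%. The smallest adjusted p, 0.0116, was that of GRMZM5G859187, with 6.09% of 2381 calls in leaf and 1.20% to 1.94% in endosperm.

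**Figure D5:**
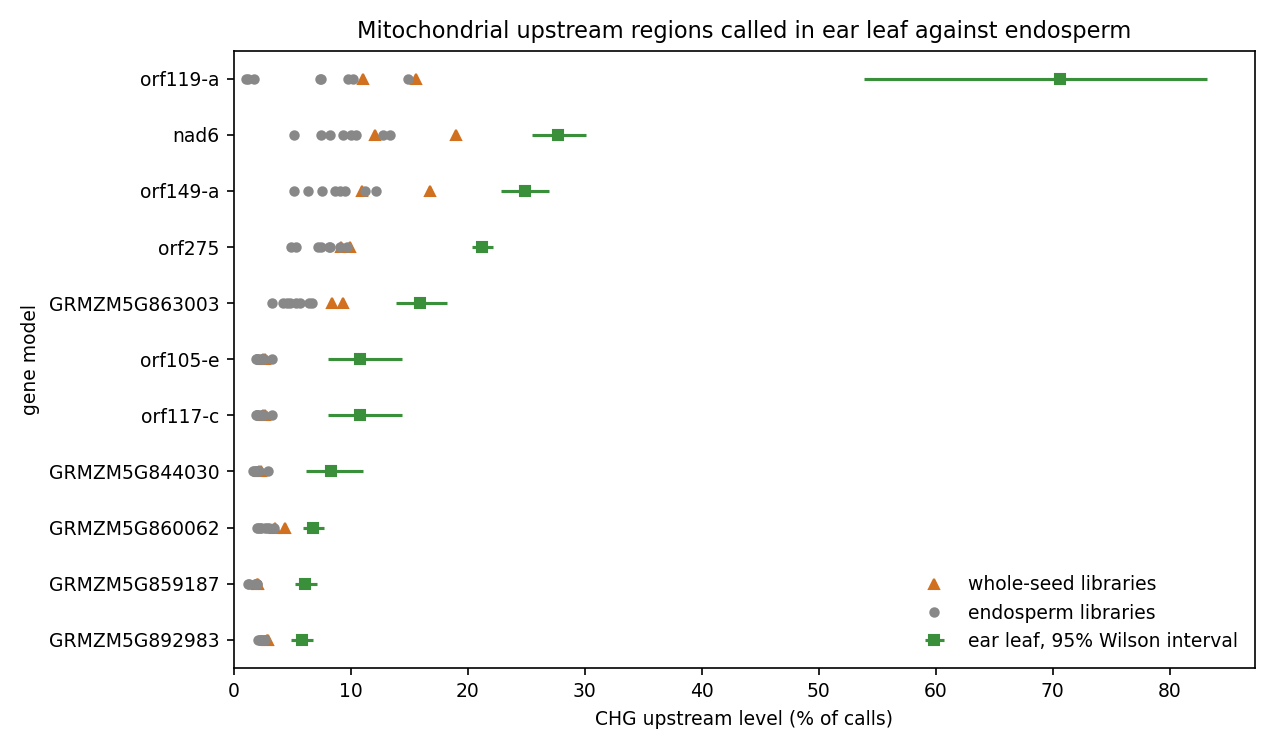
The 11 mitochondrial upstream regions called in leaf are shown with the CHG level in percent of each endosperm library (circles), each seed library (triangles) and the leaf (squares, with 95% Wilson intervals). Every leaf value lies to the right of all 8 endosperm values of its region, from 5.77% for GRMZM5G892983 to 70.59% for orf119-a.

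The body of orf911 and an upstream region that overlaps it stood far above the pooled mitochondrial CHG levels in every tissue. The body of orf911 (Mt 60824 to 63559, minus strand) had CHG at 32.65% of 147 calls and 33.72% of 172 in seed, 9.09% to 26.67% (median 21.33%) in endosperm and 36.45% of 107 in leaf. Seed and leaf lay above all endosperm libraries, and neither difference was called (adjusted p = 0.134 for seed and 0.387 for leaf). Upstream of orf115-c1, whose region overlaps that body, CHG was 23.76% and 27.27% in seed, 9.19% to 23.24% in endosperm and 32.85% in leaf. The lowest CG levels over all libraries among tested bodies were those of orf122 (0.466%), GRMZM5G853409 (0.609%) and orf117-c (0.674%). The complex I genes nad9, nad4 and nad3 had 0.954%, 1.32% and 1.81%. Over the tested bodies the pooled CG level ran from 0.466% to 7.73% (median 1.81%) in the mitochondrion, and its median was 1.87% in the chloroplast. CHG lay above CG in 23 of 36 mitochondrial and 8 of 12 chloroplast bodies, and CHH lay below CG in 33 of 36 and 12 of 12.

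Over the 8 endosperm stages no organelle model was called for a trend with day in any context in the limma-moderated test, and none with limma on log2 odds. Over all models 0.214% of bodies and 3.61% of upstream regions were called with a rising CHH level, 0.0093% and 0.016% with a falling one, and 0 for CG or CHG in either direction. At an unadjusted p under 0.05 the largest member count was 11 of 69, for mitochondrial upstream CHH, beside 6667 of 37581 over all models. Most CHH estimates pointed down, with 0 of 12 chloroplast and 3 of 39 mitochondrial bodies above 0, and 7 of 26 and 8 of 69 upstream regions. In bodies the median over all models also lay below 0, at -0.282 on the log2 odds scale, beside -0.482 for the chloroplast and -0.475 for the mitochondrion. The mitochondrial upstream median was -0.51 on the log2 odds scale over 18 days, beside 0.295 for all models. The body of nad4, the best covered, had CHH levels of 0.81% to 0.96% at days 7 to 11 and 0.60% to 0.64% at days 13 to 25, with an estimate of -0.59 ± 0.192 (SE, adjusted p = 0.29). A change that does not follow a straight line is not described by this fit.

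By function, members could rarely be followed as a group. Over all models, 1.36% of upstream regions were called higher in seed for CG and 22.2% for CHG. Of 3 models of the plastid RNA polymerase, 3 upstream regions could be tested and 1, rpoB, was called higher in seed for both CG and CHG. Of 6 plastid ribosomal protein models, 4 upstream regions were tested and 0 called. Of 3 photosystem models, 2 upstream regions with identical values were tested and 0 called. None of 7 NADH dehydrogenase-like models could be tested. In the mitochondrion, 5 of 5 complex I models were tested in both regions, and 1 was called in seed, for CHG upstream of nad4, while nad6 was called upstream for CHG in the leaf library. Of 5 ribosomal protein models, 2 bodies and 4 upstream regions were tested with 0 calls. Among the 79 open reading frames, 39 upstream regions were tested and 1, that of orf149-a, was called for CHG in seed. In the leaf library orf119-a, orf275, orf105-e, orf117-c and orf149-a were called upstream for CHG. The models of cytochrome b, ATP synthase and cytochrome c maturation could not be tested.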

How the data were processed

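Levels came from bisulfite sequencing of 11 libraries with paired reads of 101 nt on a HiSeq 2000. The submitters' processing notes name Bismark, Bowtie2 and cutadapt. No source used here gives their versions, settings, mapping rules or the genome build. The authors deposited, per the file headers, methylated call counts as whole numbers and levels in percent with 2 decimals, for body and upstream region in 3 contexts.

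Totals were recovered as 100 times the count over the level, and rounding moves them by a median of 0.35% in chloroplast bodies (at most 3.84%). From the values, a level written as 0 was read as no call and 0.00 as calls with none methylated; for the latter, totals were estimated from the other contexts, and values with 0.00 in all 3 were left out. No source used here states this reading.

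Each model was tested with a quasi-binomial fit to methylated and unmethylated calls (Python 3.11.15, numpy 2.4.6, pandas 2.3.3, scipy 1.17.1), with the dispersion moderated over all models by limma 3.58.1 in R 4.3.3, a quasi F test and Benjamini-Hochberg adjustment over all models of that context and region. A model was tested when every one of the 11 libraries gave it 10 or more calls and 10 or more were methylated in all. Seed and leaf were set against endosperm, and the trend took day as a straight line over 18 days. Calls are not independent molecules, so Wilson intervals (95%) cover counting error at most. Those of pooled upstream levels can be narrower than that, because calls shared by overlapping regions are counted more than once. The fits were tested on simulated data. The simulated CHH spread was lowered after a first run in which no changed model of the trend was recovered, so this says little about what the trend fit can detect.

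The members, lists and tests were chosen with earlier results of these data known. The upstream width, the treatment of even counts, the match of symbols by position, the counts of groups that do not overlap and the alternatives with divided counts came after the data had been seen. Models were named by a rule that took, per organelle, the 5 highest and 3 lowest covered models in body CG and CHG, the 5 with the most and 3 with the fewest calls, up to 10 called in seed per context, and models with a symbol of a listed function. Other models described were chosen after their values were seen. The values of 1 chloroplast model are not reported here. No sequences are printed, since none were at hand. Figures were drawn with matplotlib 3.10.9.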

Additional observations from a re-analysis of the deposited data

Results flagged for a closer look

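Among the 8 endosperm libraries, the depth and pooled levels of each organelle and region were searched for a library far from the others, 16 groups of values in all. The 11-day library stood apart in 1 of them: its chloroplast upstream regions received 6.312 calls per 1000 nuclear calls, against 3.131 to 4.611 in the other 7 endosperm libraries. Chance gives such a flag in about 1 of 20 groups. The chloroplast upstream CG level of this library, 1.79%, was the lowest of the 8 endosperm libraries, and its CHG level, 2.18%, lay within their range. Its chloroplast body levels, 1.97% for CG and 2.09% for CHG, were also the lowest of the 8. Nuclear levels were lowest in this library too, in every context and region. Nuclear body CG, for example, was 39.3%, against 43.2% to 48.85% in the other endosperm libraries.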

How the results depend on the processing

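No paired analysis was possible because each stage has 1 library and the labels give no replicate numbers. The calls depend most on the seed libraries and on how age and the scale are treated. With day as a covariate, called chloroplast models fell to 5 (upstream CG), 6 (upstream CHG), 1 (body CG), 1 (body CHG) and 0 (body CHH), and mitochondrial ones to 0 (body and upstream CHG). Against 7- and 9-day endosperm alone the same counts were 1, 7, 0, 0 and 0, and 0 and 0. With limma on levels in percent, chloroplast upstream counts were 0 for CG and 1 for CHG, the body CHH count was 0, and mitochondrial counts were 1, 2 and 1 for body CG, CHG and CHH and 0 for upstream CHG. With limma on log2 odds they were 0 for chloroplast body CHH and for mitochondrial body and upstream CHG in seed, and 1 for mitochondrial upstream CG in leaf. A trended prior gave 0 for mitochondrial body CHG, and a mean level of at least 1% gave 0 for chloroplast body CHH. The causes were not tested.

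Leaving out each library in turn, chloroplast seed counts ran from 0 to 13 (upstream CG), 4 to 11 (upstream CHG), 0 to 3 (body CG), 1 to 2 (body CHG) and 0 to 1 (body CHH), mitochondrial ones from 0 to 2 (body CHG) and 0 to 9 (upstream CHG), and leaf ones from 0 to 1 (body CHG) and 11 to 15 (upstream CHG). Without the 7-day endosperm library the mitochondrial upstream CHG count rose from 5 to 9, and without the 11-day library it was 3. The CHH estimate of GRMZM5G831399 ran from -19.88 to 3.27 on the log2 odds scale. It turned negative without the 5-day seed, since the 3-day seed held 0 methylated calls there, and that size has no meaning beyond its sign.

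The pooled seed minus endosperm difference stayed above 0 in all 12 combinations under every alternative. As a median over models it was 3.35 (chloroplast body CG), 2.26 (body CHG), 4.53 (upstream CG) and 2.80 (upstream CHG) percentage points, and 0.0281 for mitochondrial body CG. Without the model with the most methylated calls it was 2.67 (chloroplast body CG), 2.08 (body CHG) and 4.56 (upstream CHG), and 0.434 and 0.643 for mitochondrial body CG and CHG. With even counts divided by 2 the chloroplast body CHG difference was 4.54, and the endosperm mean of chloroplast body depth was 2.73 calls per 1000 nuclear calls in place of 3.56. Leaving out each library gave 3.46 to 4.27 (chloroplast body CG), 3.98 to 6.18 (body CHG), 4.43 to 6.24 (upstream CG), 4.56 to 5.14 (upstream CHG) and 0.116 to 0.426 (upstream CHH).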

Other observations

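Several organelle regions hold the same calls under different names, which the tables do not say. The body of GRMZM5G806488 (Cp 92870 to 131084) held 90 methylated of 1786 CG calls in 3-day seed and the region upstream of GRMZM5G894515, which lies inside it, held 45 of 893. The region upstream of rpoC2, which overlaps the rpoC1 body, held 14 of 116 and that body 7 of 58. In each pair one member had counts that were all even. The regions upstream of orf105-e and orf117-c in the mitochondrion, on opposite strands, had identical values in all 11 libraries.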
